A study of Chlorocebus sabaeus with 10 samples.

Results

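The 9 genes described here encode the core of peroxisomal fatty acid oxidation in the liver, and they were taken from the deposited transcript table by gene symbol, out of 23352 symbols in all. They are ABCD3, ACOX2, EHHADH, HSD17B4, ACAA1, SCP2, PEX11A, AMACR and CRAT. Each was represented by 1 annotated transcript. RNA was sequenced from the livers of female vervet monkeys (Chlorocebus sabaeus), an Old World primate. All animals had been kept on chow beforehand, and 5 were then fed the high fructose (HFr) diet while the other 5 stayed on chow, for 6 weeks. The comparison between the diets asks how the liver responds early to fructose. Each library came from 1 biopsy of 1 animal, so liver RNA of all its cell types was pooled. The labels give no ages. The study assigned animals to the diets with regard to age and body weight, but its HFr animals were older on average than its chow animals, with wide and overlapping spreads, and age was not used as a covariate here.

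Peroxisomes shorten fatty acids that mitochondria handle poorly, among them very long, branched and dicarboxylic chains and the side chains of bile acid precursors. Acyl-CoAs enter through ABC transporters, an acyl-CoA oxidase makes the first double bond and releases hydrogen peroxide, a multifunctional enzyme hydrates and dehydrogenates the product, and a thiolase cuts off acetyl-CoA or propionyl-CoA. A straight-chain arm and a branched-chain arm use different enzymes for some of these steps. The shortened chains leave as carnitine esters or free acids for the mitochondria. Many of the genes are classical targets of the fatty acid receptor PPARA in rodents, and the response in primates is known to be weaker.

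Values are normalized counts, which are the authors' estimated counts divided by the library size scaled with the trimmed mean of M values (TMM). They are given as CPM, counts relative to a library of fixed size. No transcript lengths were used, so levels are compared between animals for 1 gene and not between genes. The libraries held from 2977282 to 4992505 estimated counts, of which mitochondrially encoded transcripts took 34.7% to 73.6%, and this share averaged 55.5% in HFr animals and 55.4% in chow animals. Counts on nuclear transcripts were lowest in chow replicate 4, at 864571, and highest in chow replicate 3, at 2657103. All 8 hepatocyte markers, among them ALB and TTR, passed the filter on low counts and none had an unadjusted p under 0.05 between the diets. Their summed level lay between 35700 and 55764 normalized counts in HFr animals and between 32557 and 65352 in chow animals. Fewer hepatocytes and less RNA per hepatocyte cannot be told apart in such tissue.

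Of the 9 genes, 8 had enough counts to be tested and ABCD3 alone passed an unadjusted p of 0.05 in edgeR's quasi-likelihood test, with the higher level on the HFr diet. Of the 7948 transcripts tested, 4.29% met this threshold in either direction and 2.06% were higher on the HFr diet, and 1 gene of 8 is too few to be read as a share. None of the 8 passed adjustment over all transcripts, and neither did any other transcript (0% called, against 341 with an unadjusted p under 0.05). DESeq2 gave 2 adjusted calls and edgeR with library size only gave 1, none of them a member. The adjusted p was 0.9996 for each of the 8. ABCD3, ACAA1, EHHADH, HSD17B4 and CRAT had log2 fold changes above 0, and ACOX2, SCP2 and AMACR had values below 0. Of all tested transcripts, 49.8% had a value above 0. The median log2 fold change was 0.15 over the 8 genes and -0.00069 over all tested transcripts. The counts of the 9 genes together made up 0.419% to 0.568% of nuclear counts in HFr animals and 0.365% to 0.549% in chow animals, ranges that overlapped.

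**Figure D1:**
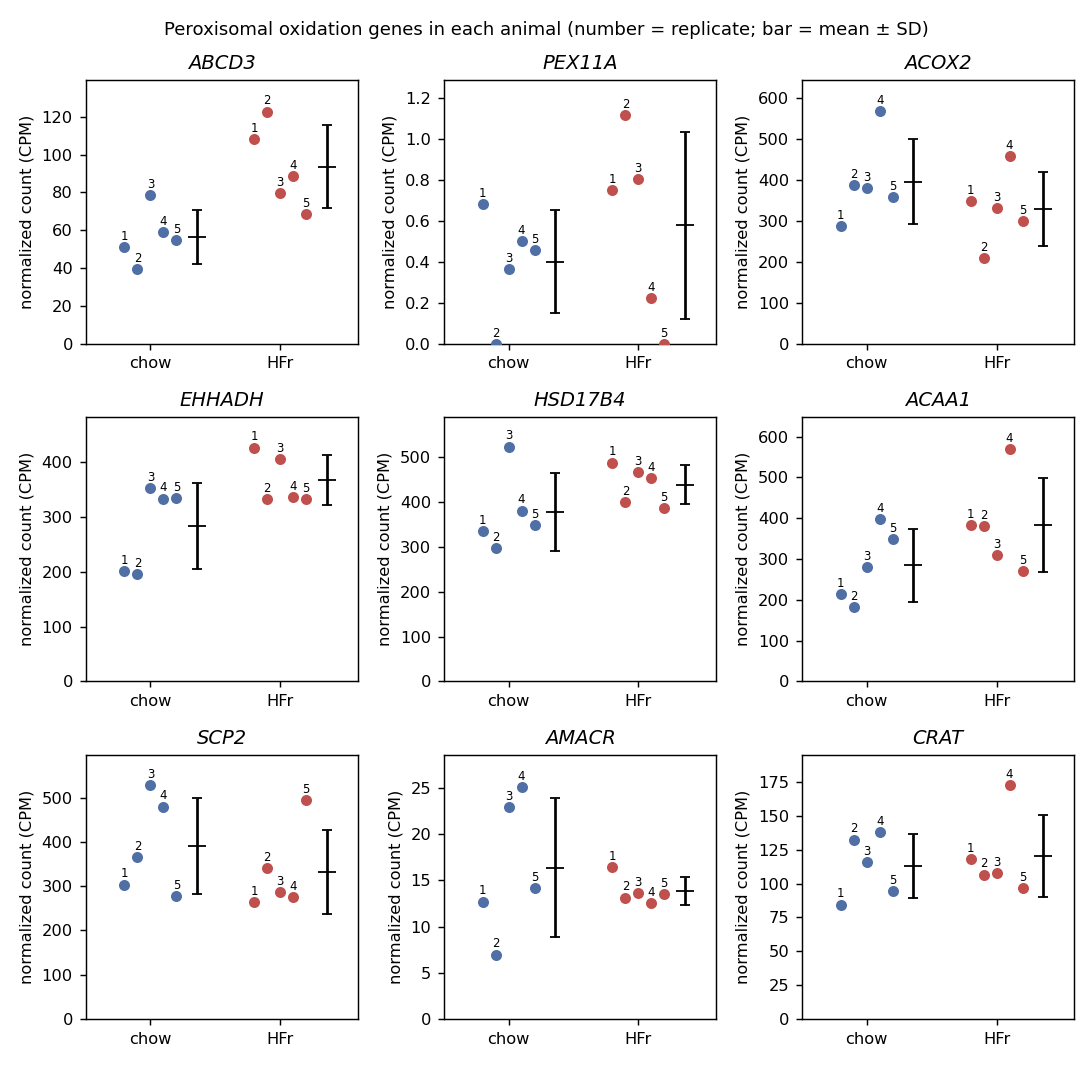
Normalized counts (CPM, linear axes from 0) of the 9 genes in each of the 10 animals, with the replicate number beside each point and the mean ± SD (n = 5) as a bar. ABCD3 lay between 68.4 and 123 in HFr animals and between 39.4 and 78.5 in chow animals, and the animals of the diets overlapped for each of the 9 genes.

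ABCD3, also called PMP70, is an abundant half-transporter of the peroxisomal membrane that carries long-chain and branched-chain acyl-CoAs and bile acid precursors inward. It lies on chromosome 20 of the vervet assembly ChlSab1.1, from 38748787 to 38845990 on the minus strand. HFr replicates 1 to 5 had 108, 123, 79.7, 88.7 and 68.4 normalized counts, and chow replicates 1 to 5 had 51.3, 39.4, 78.5, 59.2 and 54.8. All HFr animals were above the chow mean, and the groups overlapped only through chow replicate 3, which stood above HFr replicate 5. The means were 93.6 ± 21.9 and 56.6 ± 14.3 (SD, n = 5 each). ABCD3 was 1.65-fold higher in HFr animals, with a log2 fold change of 0.72, a standard error (SE) of 0.22 and a 95% interval of 0.26 to 1.19 (unadjusted p = 0.00478 by edgeR, adjusted p = 0.9996). By this p it ranked 31 of 7948. A two-sided exact permutation test of the normalized counts gave p = 0.0159, where 0.00794 is the smallest that 5 animals against 5 allow. Over 27 alternatives its log2 fold change stayed between 0.61 and 0.87 and its unadjusted p between 0.00129 and 0.0442, while its adjusted p was never below 0.533.

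PEX11A promotes the elongation and division of peroxisomes and is known as a strongly inducible PPARA target in rodents. On chromosome 29, from 8221920 to 8229244, it had 2, 5, 2, 1 and 0 estimated counts in HFr replicates 1 to 5. Chow replicates 1 to 5 had 3, 0, 2, 1 and 1 counts. The sums were 10 counts on the HFr diet and 7 on chow, too few for the test. A count of 0 allows up to 3 counts, or 0.590 normalized counts in HFr replicate 5 and 0.653 in chow replicate 2, an allowance that covers counting error only. A difference in PEX11A between the diets was not detectable at this depth.

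EHHADH is the L-bifunctional enzyme, which performs the hydratase and dehydrogenase steps for straight-chain and dicarboxylic acyl-CoAs. It lies on chromosome 15 from 4164838 to 4228652. HFr replicates 1 to 5 had 426, 332, 406, 335 and 333 normalized counts, and chow replicates 1 to 5 had 201, 195, 353, 333 and 335. Chow replicates 1 and 2 stood far below every HFr animal, whereas the other 3 chow animals fell among the HFr values. All 5 HFr animals were above the chow mean. The means were 367 ± 45.8 and 283 ± 78.4 (SD, n = 5 each), a log2 difference of 0.37 (SE 0.22, 95% interval -0.09 to 0.83, unadjusted p = 0.106 by edgeR).

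ACAA1, the peroxisomal 3-oxoacyl-CoA thiolase, completes the straight-chain cycle and lies on the same chromosome 15, from 1282650 to 1297833. HFr replicates 1 to 5 had 383, 381, 309, 569 and 269 normalized counts, and chow replicates 1 to 5 had 214, 182, 280, 397 and 349. HFr replicate 4 was the highest of all animals, and chow replicates 1 and 2 were the lowest, as they were for EHHADH. The means of 382 ± 115 and 284 ± 90.1 (SD, n = 5 each) differed by 0.43 on the log2 scale (SE 0.26, 95% interval -0.13 to 0.99, unadjusted p = 0.120 by edgeR). The 2 libraries with the fewest nuclear counts, chow replicates 4 and 5, were also the 2 chow animals with the most ACAA1. Without them, in an alternative added after the data were seen, the log2 fold change of ACAA1 was 0.77 (unadjusted p = 0.0196 by edgeR, adjusted p = 0.999). In that fit 2 members in place of 1 had an unadjusted p under 0.05, beside 394 of 8867 transcripts. The members are too few to be read as a share.

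HSD17B4 is the D-bifunctional enzyme, which serves the branched-chain and bile acid arm as well as very long straight chains. On chromosome 23, from 22674072 to 22762057, it had 488, 399, 466, 453 and 387 normalized counts in HFr replicates 1 to 5 and 336, 298, 524, 381 and 349 in chow replicates 1 to 5. Chow replicate 3 was the highest of the 10 animals, and the other 4 chow animals were below all HFr animals. The means were 439 ± 43.6 and 377 ± 87.0 (SD, n = 5 each), a log2 difference of 0.22 (SE 0.19, 95% interval -0.20 to 0.63, unadjusted p = 0.284 by edgeR). Without chow replicate 3, the animals of the diets no longer overlapped for 2 members, ABCD3 and HSD17B4, and without HFr replicate 5 they no longer did for 1, ABCD3. The animals left out were those that made the overlap. The share of all transcripts was not computed without them, so these counts are not a result about the members. With all animals the count was 0 of 8, against 0.541% of all tested transcripts.

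**Figure D2:**
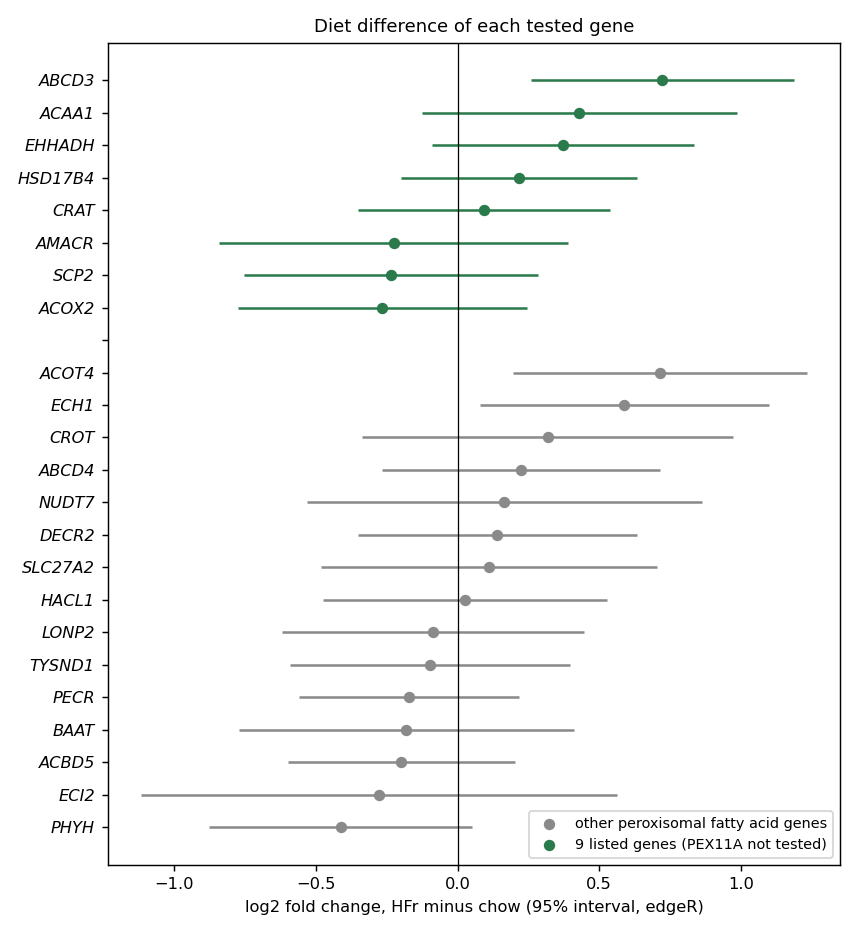
Log2 fold change of each tested gene (HFr minus chow, horizontal axis) with its 95% interval from edgeR, for the 8 tested members and for other tested peroxisomal genes of fatty acid import and oxidation. The interval of ABCD3, from 0.26 to 1.19, is the only one of the 8 members that leaves out 0, and ACOT4 and ECH1 stand out likewise among the other genes.

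Of the enzymes of the branched-chain and bile acid arm, ACOX2, SCP2 and AMACR had lower means on the HFr diet and HSD17B4 a higher one, none beyond the spread between animals. ACOX2, the oxidase that acts on bile acid intermediates and branched chains, lies on chromosome 22 from 19804440 to 19838375. HFr replicates 1 to 5 had 347, 209, 331, 458 and 298 normalized counts, and chow replicates 1 to 5 had 286, 386, 379, 567 and 357. The highest animal was chow replicate 4 and the lowest HFr replicate 2, with the rest intermixed. The log2 fold change of ACOX2 was -0.27 (SE 0.24, 95% interval -0.78 to 0.25, unadjusted p = 0.284 by edgeR), from means of 329 ± 89.8 and 395 ± 104 (SD, n = 5 each).

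SCP2 encodes both the thiolase of the branched-chain arm and sterol carrier protein 2, and the single transcript annotated for it here does not tell the forms apart. On chromosome 20, from 79865332 to 79993836, it had 264, 341, 287, 275 and 494 normalized counts in HFr replicates 1 to 5. Chow replicates 1 to 5 had 303, 367, 528, 480 and 278. Only HFr replicate 5 exceeded the chow mean, and it did so by a wide margin. The means were 332 ± 95.5 and 391 ± 109 (SD, n = 5 each), a log2 difference of -0.24 (SE 0.24, 95% interval -0.76 to 0.28, unadjusted p = 0.347 by edgeR).

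AMACR, the racemase that turns (R)-methyl-branched acyl-CoAs into the form the oxidase accepts, lies on chromosome 4 from 33225754 to 33244837. HFr replicates 1 to 5 had 16.5, 13.1, 13.6, 12.6 and 13.6 normalized counts, and chow replicates 1 to 5 had 12.7, 6.96, 23.0, 25.1 and 14.1. The HFr animals were close together while the chow animals lay on both sides of them. The means were 13.9 ± 1.51 and 16.4 ± 7.52 (SD, n = 5 each), a log2 difference of -0.23 (SE 0.29, 95% interval -0.84 to 0.39, unadjusted p = 0.444 by edgeR). AMACR had 31 to 126 estimated counts per animal, so its counting error was larger than that of the other tested members, each with at least 118 counts in every animal.

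CRAT, carnitine acetyltransferase, makes acetylcarnitine from the acetyl-CoA that oxidation releases, in peroxisomes and in mitochondria. On chromosome 12, from 9058824 to 9072814, it had 118, 107, 108, 173 and 96.9 normalized counts in HFr replicates 1 to 5 and 84.4, 132, 116, 138 and 94.5 in chow replicates 1 to 5. Apart from HFr replicate 4 the animals were intermixed. The log2 fold change of 0.09 (SE 0.21, 95% interval -0.35 to 0.54, unadjusted p = 0.662 by edgeR) was -0.082 without HFr replicate 4, so its direction rested on that animal. The means were 120 ± 30.3 and 113 ± 23.3 (SD, n = 5 each).

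The spread between animals was larger on chow than on the HFr diet for 6 of the 8 tested members, on the log2(normalized count + 1) scale, and for 55.7% of all tested transcripts. AMACR had an SD of 0.69 on chow and 0.14 on the HFr diet on this scale, EHHADH 0.43 and 0.18, and HSD17B4 0.31 and 0.14. The exceptions were ACOX2 and CRAT. Among the animals, chow replicate 2 had the lowest value of all 10 for 5 of the 8 genes, namely ABCD3, EHHADH, HSD17B4, ACAA1 and AMACR, and it also had the lowest mitochondrial share of counts, 34.7%.

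Enzymes that carry out the same step in different arms were set against each other within each library, where the ratio of their estimated counts does not depend on normalization. Exact permutation tests, two-sided and adjusted over the 2 ratios, were used for the differences, and none passed. The ratio of EHHADH to HSD17B4 was 0.874, 0.833, 0.871, 0.740 and 0.860 in HFr replicates 1 to 5. In chow replicates 1 to 5 it was 0.597, 0.656, 0.674, 0.875 and 0.958. Chow replicates 1 to 3 were thus below every HFr animal, chow replicate 4 was level with the highest HFr animal and chow replicate 5 was above all of them. The difference in mean log2 ratio was 0.17 (SE 0.14, n = 5 each, exact p = 0.270, adjusted p = 0.270).

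The thiolase ratio, ACAA1 to SCP2, was 1.45, 1.12, 1.08, 2.07 and 0.545 in HFr replicates 1 to 5. In chow replicates 1 to 5 it was 0.704, 0.495, 0.529, 0.827 and 1.26. HFr replicates 1 to 4 stood above chow replicates 1 to 4, whereas HFr replicate 5 was among the lowest animals and chow replicate 5 among the highest. The difference in mean log2 ratio was 0.67 (SE 0.40, n = 5 each, exact p = 0.135, adjusted p = 0.270), and it was 0.94 without HFr replicate 5 (exact p = 0.0397, unadjusted).

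In both ratios the enzyme more devoted to straight chains was relatively higher on the HFr diet, but within the spread between animals. The ratios share libraries with the tests of the single genes.

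**Figure D3:**
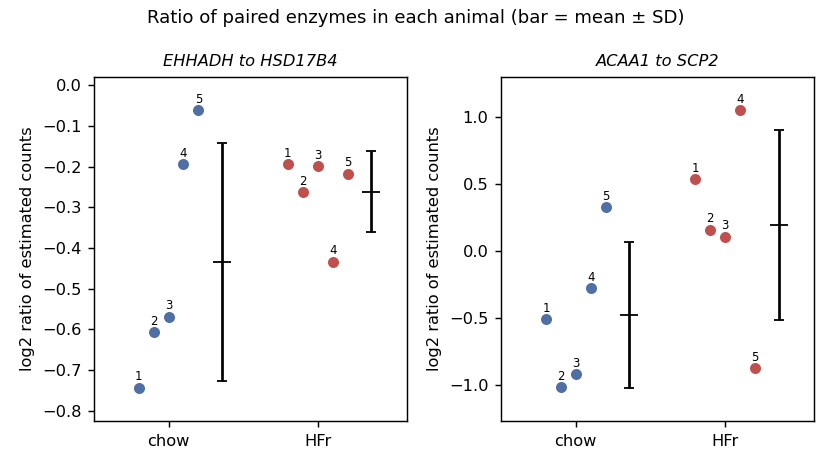
Log2 ratio of estimated counts of the paired enzymes in each animal (replicate number beside each point, bar for mean ± SD, n = 5). The chow animals spread from -0.74 to -0.06 for EHHADH to HSD17B4 and the HFr animals from -0.43 to -0.19, and the groups overlapped in both panels.

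Across the 10 animals, the correlations between members ran from -0.36 to 0.81. Of 28 pairs among the 8 tested genes, 24 had a positive Pearson correlation of log2(normalized count + 1), with a median r of 0.30. EHHADH and HSD17B4 had the highest (r = 0.81, permutation p = 0.00156, adjusted p = 0.0437 over the 28 pairs, and Spearman's rho = 0.84, permutation p = 0.00376, adjusted p = 0.0864). It was 0.62 without the 2 animals farthest from the median of EHHADH, and 0.75 with each diet centered on its own mean. It was the only pair past 0.05 after adjustment, and only by Pearson's r. The 28 pairs reuse the same 8 genes and pairs of other transcripts were not counted, so the number of positive pairs is a description.

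The next pairs were ABCD3 with HSD17B4 (r = 0.76, permutation p = 0.0111, rho = 0.79, permutation p = 0.00832) and ABCD3 with EHHADH (r = 0.74, permutation p = 0.0119, rho = 0.58, permutation p = 0.0886). The adjusted p of r was 0.111 for both, and that of rho was 0.0864 for the former and 0.413 for the latter. Without the 2 animals farthest from the median of ABCD3, r was 0.87 and 0.73. The lowest correlations were those of ABCD3 with ACOX2 (r = -0.36, permutation p = 0.312, adjusted p = 0.632, rho = -0.25, permutation p = 0.491, adjusted p = 0.764), of ACAA1 with SCP2 (r = -0.28, permutation p = 0.428, adjusted p = 0.749, rho = -0.47, permutation p = 0.177, adjusted p = 0.503) and of ABCD3 with SCP2 (r = -0.19, permutation p = 0.593, adjusted p = 0.849, rho = -0.32, permutation p = 0.367, adjusted p = 0.685). Without 2 animals chosen in the same way these were 0.08, -0.13 and -0.22. With each diet centered on its own mean they were -0.13, -0.15 and 0.08. The pair of EHHADH with ACAA1 had r = 0.69 over all animals and -0.14 without the 2 animals farthest from the median of EHHADH, so it rested on those animals.

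**Figure D4:**
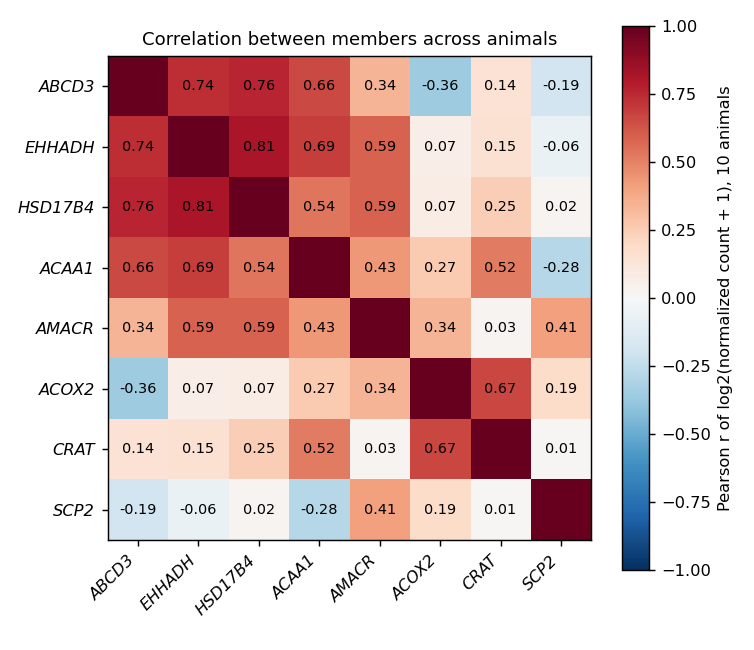
Pearson r of log2(normalized count + 1) across the 10 animals for each pair of the 8 tested genes. ABCD3, EHHADH, HSD17B4 and ACAA1 have positive values with each other, up to 0.81, of which only that of EHHADH with HSD17B4 passed adjustment, and SCP2 has values near or below 0 with each of these 4 genes.

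The mitochondrial share of counts was set against each of the 8 tested members, and none of the 8 relations had a permutation p under 0.05. The strongest was with ACAA1 (r = 0.55, permutation p = 0.103, adjusted p = 0.384, rho = 0.59, permutation p = 0.0799, adjusted p = 0.441, and r = 0.48 without the 2 animals farthest from the median share). With the mitochondrial ratio as a covariate, ABCD3 kept a log2 difference of 0.72 (unadjusted p = 0.00602 by edgeR). Of the markers of other liver cells, 1 had an unadjusted p under 0.05, the smooth muscle and activated stellate cell gene ACTA2. It had 5.17 ± 2.23 normalized counts on the HFr diet and 15.8 ± 10.4 on chow (SD, n = 5 each, log2 fold change -1.57, SE 0.49). Over all tested transcripts 4.29% met this threshold, and 1 marker is too few to be read as a share. Of the tested stellate cell and fibroblast markers, 1 was above 0 and 5 below, with a median log2 fold change of -0.35. All 6 tested macrophage markers were above 0, with a median of 0.14, beside 49.8% of all tested transcripts. The summed stellate cell and fibroblast markers, 6 of 8 tested, ranged from 222 to 404 normalized counts in HFr animals and from 179 to 822 in chow animals, and their part in the values of the members was not tested. None of the tested macrophage (6), endothelial (7), lymphocyte (4), cholangiocyte (2), adipocyte (2) and erythroid (1) markers had an unadjusted p under 0.05. The summed macrophage markers ranged from 314 to 469 normalized counts in HFr animals and from 301 to 457 in chow animals, and the endothelial ones from 305 to 418 and from 240 to 421. Skeletal muscle markers were at or near 0, with sums of at most 2.72.

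A list of 62 other peroxisomal genes placed the members within the organelle. Of these, 60 were in the table and 44 were tested, with 23 log2 fold changes above 0 and 21 below and a median of 0.02. An unadjusted p under 0.05 from edgeR was reached by 3 of the 44, all higher on the HFr diet, a share close to the 4.29% of all transcripts, so the count is not a result about the organelle. None passed adjustment. ACOT4, a thioesterase that frees dicarboxylic and other acids from CoA, had 18.5 ± 4.83 normalized counts on the HFr diet and 11.1 ± 3.19 on chow (SD, n = 5 each, log2 fold change 0.71, SE 0.24). ECH1, a dienoyl-CoA isomerase of unsaturated chains found in peroxisomes and mitochondria, had 29.0 ± 6.88 and 19.4 ± 5.94 (log2 fold change 0.59, SE 0.24). ACBD4, an acyl-CoA binding protein of the peroxisomal membrane that tethers it to the endoplasmic reticulum, had 42.4 ± 12.3 and 25.8 ± 11.9 (log2 fold change 0.74, SE 0.28). Without HFr replicate 3 the count of 3 was 5 of 46, beside 392 of 8278 transcripts. Without chow replicate 2 it was 5 of 44, beside 408 of 8065. It was 1 of 44 without chow replicate 1 (368 of 8115) and 1 of 46 without chow replicate 5 (285 of 8305).

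Among the tested genes of peroxisome assembly no diet difference was detected. Of the 16 peroxins listed, 9 were tested, none had an unadjusted p under 0.05, and the log2 fold changes ran from -0.20 to 0.11. Their SEs reached 0.38, so small differences could not be told from none. The other peroxins had too few counts for the test. The 14 oxidases and other matrix enzymes also gave 0 under this threshold, with 7 above 0 and 7 below. Among them catalase (CAT), which removes the hydrogen peroxide that the oxidases release, had 1198 ± 256 normalized counts on the HFr diet and 1498 ± 216 on chow (SD, n = 5 each). For CAT every HFr animal lay under the chow mean, and its log2 fold change was -0.32 (SE 0.22, unadjusted p = 0.162 by edgeR). AGXT, which detoxifies glyoxylate, and IDH1, an NADPH source, had log2 fold changes of 0.21 (SE 0.25) and 0.01 (SE 0.21).

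The mitochondrial route of fatty acid oxidation, the counterpart of the peroxisomal one, had 17 of its 18 tested genes above 0 and 1 below, with a median log2 fold change of 0.37, beside 49.8% above 0 and a median of -0.00069 over all tested transcripts. An unadjusted p under 0.05 was reached by 3 of the 18, all higher on the HFr diet. Over all tested transcripts, 4.29% reached it in either direction and 2.06% with the higher level on the HFr diet. HADHA, the alpha subunit of the trifunctional protein, had 83.2 ± 31.0 normalized counts on the HFr diet and 52.2 ± 9.21 on chow (SD, n = 5 each, log2 fold change 0.67, SE 0.24). SLC25A20, the carnitine-acylcarnitine carrier, had 55.4 ± 11.0 and 40.3 ± 7.87 (log2 fold change 0.46, SE 0.19). CPT1A, which controls entry of long chains into mitochondria, had 217 ± 115 and 152 ± 89.7 (log2 fold change 0.52, SE 0.48), ACADVL a log2 difference of 0.37 (SE 0.28) and ACAA2 one of 0.43 (SE 0.23). These counts set no test against the peroxisomal members.

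PPARA itself had too few counts for the test, from 2 to 19 per animal. Of the 18 PPARA targets listed outside the peroxisome, 13 were tested, 12 were above 0 and 5 had an unadjusted p under 0.05, beside the same 49.8% and 4.29% of all transcripts. This list shares genes with the mitochondrial one, and some of its genes are ones that the study itself named from these libraries, so the count is not independent evidence of a direction. FABP1, PDK4 and PNPLA2 had log2 fold changes of 1.20 (SE 0.34), 0.75 (SE 0.26) and 0.72 (SE 0.18). PLIN2, which coats lipid droplets, had 177 ± 93.2 normalized counts on the HFr diet and 88.1 ± 69.7 on chow (SD, n = 5 each). CREB3L3 and ACSL1 had log2 fold changes of 0.79 (SE 0.38) and 0.066 (SE 0.24), where CREB3L3 had only 1 to 29 estimated counts per animal. Of the receptor's partners, 9 were tested and 1, ESRRA (0.47, SE 0.16), had an unadjusted p under 0.05. RXRA, with which PPARA pairs on DNA, had 0.09 (SE 0.16), and HNF4A, NCOR1 and PPARGC1A had -0.15, -0.56 and 0.44 (SE 0.21, 0.41 and 0.58).

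Bile acid synthesis uses ACOX2, AMACR, HSD17B4 and SCP2 to shorten the side chain, and the other genes of that route were read beside them. Of 9 listed genes, 7 were tested, 1 was above 0 and 6 below, with a median log2 fold change of -0.45. The 2 with an unadjusted p under 0.05 were both lower on the HFr diet. Of all tested transcripts, 49.8% were above 0, 4.29% met this threshold and 2.23% met it with the lower level on the HFr diet. With 7 genes tested, these counts are too few to be read as shares. This list also shares genes with that of the other peroxisomal genes. AKR1D1, the steroid reductase that shapes the bile acid ring system, had 133 ± 53.5 normalized counts on the HFr diet and 205 ± 24.3 on chow (SD, n = 5 each, log2 fold change -0.62, SE 0.26, unadjusted p = 0.0310 by edgeR). SLC27A5, the bile acyl-CoA synthetase, had 251 ± 36.9 and 383 ± 111 (log2 fold change -0.61, SE 0.21, unadjusted p = 0.0125 by edgeR). Every HFr animal lay under the chow mean for both genes, and neither passed adjustment (adjusted p = 0.9996). CYP27A1, which starts side chain oxidation in mitochondria, had a log2 difference of -0.20 (SE 0.18), and CYP7A1, the rate-limiting enzyme of the classical route, one of -0.85 (SE 0.68). CYP7A1 had only 1 to 62 estimated counts per animal.

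**Figure D5:**
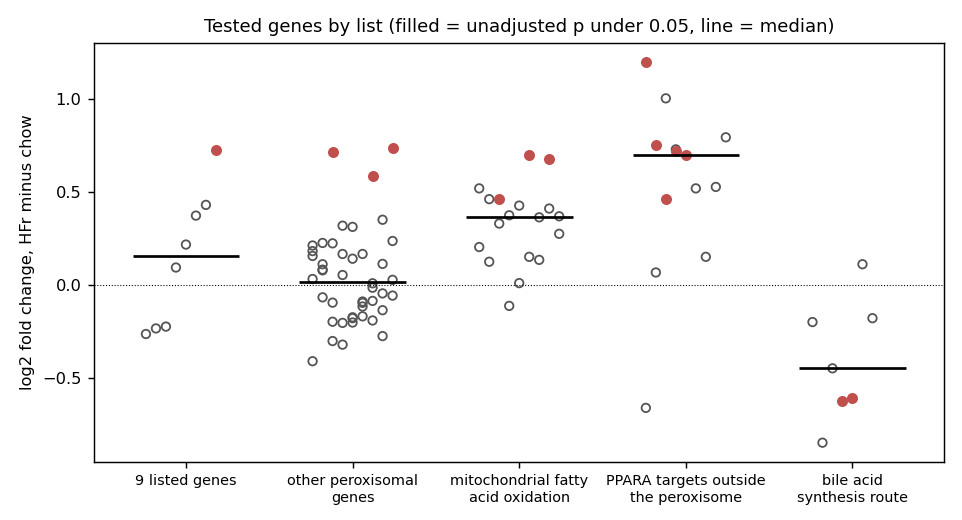
Log2 fold change (HFr minus chow) of each tested gene in 5 lists, with filled points for an unadjusted p under 0.05 from edgeR and a line at each list's median. The medians were 0.15 for the members, 0.02 for other peroxisomal genes, 0.37 for mitochondrial fatty acid oxidation, 0.70 for PPARA targets outside the peroxisome and -0.45 for the bile acid route.

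The transcripts most like the members were found by correlating log2(normalized count + 1) across the 10 animals with the mean of the 8 tested members, each centered on its own mean. Among 7163 other named transcripts the highest r belonged to ACSL5 (0.86), STN1 (0.86), MRPL52 (0.84), INPP1 (0.82), SLC24A1 (0.82), ABCB1 (0.82), FMNL1 (0.81), OXSR1 (0.79), SERPINA7 (0.79) and AP1B1 (0.78). The median r of the 7163 was -0.00406, and 5% of them exceeded 0.52. ACSL5, which activates long-chain fatty acids to acyl-CoA, had 68.8 ± 18.3 normalized counts on the HFr diet and 44.4 ± 21.9 on chow (SD, n = 5 each, log2 fold change 0.64, SE 0.33). All 10 genes had an unadjusted p above 0.05 between the diets. These correlations describe 10 libraries that share their depth and composition.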

How the data were processed

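The authors aligned paired-end reads of polyadenylated RNA to ChlSab1.1 (STAR 2.5.3a is among the tools named in the submitters' notes), quantified Ensembl transcripts in Partek Flow with an expectation-maximization method, and deposited the estimated counts without normalization. The second deposited table holds signal values that the authors made by scaling these counts with TMM, and it was used for 1 alternative only. Coordinates are as deposited, where a stop appears to be the first base after the feature.

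After rounding of the estimated counts, filterByExpr (at least 10 counts and a total of 15) kept 7948 of 28078 transcripts. HFr and chow animals were tested against each other by edgeR's quasi-likelihood method with TMM and diet as the only term, and with Benjamini-Hochberg adjustment over all transcripts tested (R 4.3.3, edgeR 4.0.16, limma 3.58.1, DESeq2 1.42.0). A standard error is the log2 fold change divided by the square root of F. The biological coefficient of variation was 29.0%. Precision is limited by 5 animals per diet and, for genes with few counts such as PEX11A and PPARA, by depth. The procedure was tested on simulated data. Single values were compared with exact permutation tests over 252 assignments and correlations with 100000 permutations.

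Members and lists were chosen with earlier results of these data known. All 9 members are named. From the other lists, genes with an unadjusted p under 0.05, the 3 with the highest means and the 3 with the largest fold changes are named, as are the 3 highest and 3 lowest pairs and the 10 most similar transcripts. PPARA, ALB, TTR and ACTA2 were named after their values were seen. For 2 further listed genes the totals include them but no values are given. No protein or promoter sequence was used here. Alternatives were DESeq2, limma, voom, other normalizations and filters, counts summed by gene, the study's equal-variance test, a replicate block, treatment of mitochondrial transcripts, robust estimation and each animal left out.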

Additional observations from a re-analysis of the deposited data

Results flagged for a closer look

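In each group of 5 animals, the highest or lowest value was compared with the range of its group, for 76 groups covering the members, the ratios and the other genes named by rule. Of these, 5 stood apart by Dixon's test, where chance alone gives about 1 in 20. AMACR was 16.5 normalized counts in HFr replicate 1 and 12.6 to 13.6 in the other HFr animals. CRAT was 173 normalized counts in HFr replicate 4 and 96.9 to 118 in the others. The log2 ratio of EHHADH to HSD17B4 was -0.43 in HFr replicate 4 and -0.26 to -0.19 in the others. Chow replicate 4, the library with the fewest nuclear counts, gave the remaining 2 values. AGXT was 1129 normalized counts there and 671 to 711 in the other chow animals, and SLC27A5 was 575 there and 292 to 361 in the others.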

How the results depend on the processing

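Of 404 values under the alternatives, 390 kept their direction and their side of the threshold, or for counts stayed within 1.5 times. Some of these were fixed in advance. Each member had 1 transcript, so summing by gene could not change the ratios. The replicate block could change only the p of a ratio and not its difference between the diets. With library size only, 1 of the other peroxisomal genes and 124 of all transcripts had an unadjusted p under 0.05, against 3 and 341. The count over all transcripts was 756 of 16066 when any transcript with a count was tested and 559 of 14587 with the study's equal-variance test on the signal values, of which 63.3% were higher on the HFr diet against 48.1% of the 341. Without chow replicates 4 and 5, an alternative added after the data were seen, 2 members had an unadjusted p under 0.05, beside 394 of 8867 transcripts. ACAA1 then joined ABCD3, with a log2 fold change of 0.77. Leaving out each animal in turn, the counts ranged from 1 to 5 for other peroxisomal genes and from 261 to 408 for all transcripts. Members without overlap ranged from 0 to 2, with no share of all transcripts computed beside them. The log2 fold change of CRAT ranged from -0.082 (without HFr replicate 4) to 0.17. That of ACOX2 ranged from -0.42 to -0.11, of SCP2 from -0.42 to -0.10, of AMACR from -0.43 to -0.041 (without chow replicate 3), of HSD17B4 from 0.14 to 0.36, of ACAA1 from 0.23 to 0.57 and of EHHADH from 0.26 to 0.46, none with an unadjusted p under 0.05. The log2 difference of ACAA1 to SCP2 ranged from 0.46 to 0.94 and that of EHHADH to HSD17B4 from 0.096 to 0.27. The causes were not tested. No same-numbered pair correlated above 0.1, the highest being 0.0986 for replicate 4, and only 1 of 10 animals correlated best with its own number. Replicate numbers thus gave no sign of pairing the animals, though 5 animals per diet cannot exclude it. With the replicate block, 271 of all transcripts and 1 member had an unadjusted p under 0.05 (ABCD3, log2 fold change 0.73). Under the block ABCD3 had an unadjusted p = 0.0146 by edgeR's quasi-likelihood test. The block changed no call of a member. At this depth PEX11A had too few counts for the main test. When any transcript with a count was tested, its log2 fold change was 0.47 (SE 0.86, unadjusted p = 0.594 by edgeR). With the study's equal-variance test it was 0.56 (unadjusted p = 0.445).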
